A study of Homo sapiens with 5 samples.

Results

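The 10 genes described here encode subunits of TFIID, the general transcription factor that carries the TATA-binding protein TBP to promoters: TBP, TAF1, TAF2, TAF3, TAF4, TAF5, TAF6, TAF8, TAF11 and TAF13. The members were chosen by gene symbol among the rows of a deposited expression table, and the group was put together around TAF2 because its mRNA was known to be lower after the siRNA. The TAF2 values are for that reason given as a description with no test. All 10 members were in the table of 13822 genes, and all 10 passed the filter on low values that left 12245 genes for testing.

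TFIID is the first general factor to recognise most promoters of RNA polymerase II, and the other general factors and the polymerase assemble on it. It is built from TBP and a set of TBP-associated factors (TAFs) arranged in lobes. Many of the TAFs pair with each other through histone folds. TAF2 contacts the initiator and downstream promoter DNA and joins the complex through TAF8 and TAF10, while TAF1 and TBP lie in the lobe that is rearranged when TBP is loaded onto DNA.

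The cells were RH4, an established line of alveolar rhabdomyosarcoma, a childhood tumour with features of skeletal muscle precursors. Both groups were transfected with 30 nM of a siRNA, either a control siRNA (si-SCR, 3 libraries) or a siRNA against the back-splice junction of the circular RNA circVAMP3 (si-circVAMP3, 2 libraries). Collection came 24 h after a change of medium, which was itself made 24 h after transfection. Polyadenylated RNA of whole-cell lysates was sequenced, so a circular RNA without a poly-A tail is outside what was measured, and the comparison asks which mRNAs differ when the junction siRNA replaces the control siRNA.

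The values are FPKM, the number of sequenced fragments of a gene per kilobase of its exons, scaled to the total of the library. Whole fragments could be recovered from them, as lower bounds, with totals of 26393344, 25003952 and 24895350 fragments in si-SCR replicates 1, 2 and 3 and of 18592066 and 28765587 fragments in si-circVAMP3 replicates 1 and 2. The first si-circVAMP3 library was thus the shallowest. Its distance from the second si-circVAMP3 library, the SD of the log2 differences over all genes tested, was 0.18, against 0.16 to 0.24 among si-SCR libraries and 0.33 to 0.37 between the groups. Each TFIID member was covered by at least 287 recovered fragments in every library, the lowest being TAF3 in si-circVAMP3 replicate 1.

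The levels of markers set out for this line were checked first. The myogenic regulator MYOD1 stood at 84.3 to 115 FPKM in the si-SCR libraries, and the muscle filament gene DES at 249 to 291 FPKM. The receptor tyrosine kinase FGFR4, abundant in this tumour, stood at 197 to 251 FPKM. Of the markers of other cell types, the fibroblast genes COL1A1, PDGFRA and DCN and the endothelial gene PECAM1 stayed below 1 FPKM in every library, PDGFRA being the highest at 0.882 FPKM. MYF5, EPCAM, CDH1, KRT5, PTPRC, CD3E, CD14, CDH5 and VWF were not analysed here. Of 10 muscle and tumour markers tested, MYOG, NCAM1 and FOXO1 were lower with si-circVAMP3 and 0 were higher, against 15.8% and 14.4% of all genes tested, so the count is not read as particular to these markers. The muscle regulator MYOG was at 175, 179 and 149 FPKM in the si-SCR libraries and 101 and 96.6 FPKM in the si-circVAMP3 libraries (log2 difference -0.76, limma adjusted p = 0.00159), and its part in the differences below was not tested. In bulk libraries of this kind, fewer cells of a type and less RNA per cell cannot be told apart.

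The siRNA sequence is shown because it defines the treated group and because parts of it recur in the mRNAs described below. It was taken from the study's list of oligonucleotides, and its complementary strand was derived from it.
si-circVAMP3, strand as listed: caucaucgGUGGUGGACAUuu
complementary strand without overhang: aUGUCCACcaccgaugaug
Capitals in the listed strand run from the back-splice junction to the end of the pairing part, and capitals in the complementary strand mark its bases 2 to 8, the seed with which a guide strand in Argonaute first pairs. The first 8 bases of the listed strand are the end of VAMP3 exon 4 (chr1:7778118-7778169) and the next 11 are the start of exon 3 (chr1:7777160-7777318; GRCh38, plus strand, both within the coding transcript). In the linear VAMP3 mRNA the longest run shared with the 19 pairing bases is 12.

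The linear VAMP3 mRNA, which shares these exons and encodes a vesicle fusion protein, was measured in the same libraries. Its level was 36.4, 35.4 and 37.4 FPKM with si-SCR and 29.4 and 30.2 FPKM with si-circVAMP3. The groups did not overlap, and limma gave a log2 difference of -0.29 (SE 0.0438, adjusted p = 0.00502), 1.22-fold lower. Without si-circVAMP3 replicate 1 the adjusted p from limma was 0.0506, and over 15 alternatives it ran from 0.00285 to 0.0506. The circular RNA itself, the target of the siRNA, was not measured in these libraries.

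TAF2, an aminopeptidase-like subunit that contacts promoter DNA (chr8:119730774-119832863, minus strand, GRCh38), had the lowest log2 difference of the 10 members. Its level was 16.1, 16.6 and 17.0 FPKM in the si-SCR libraries and 6.99 and 6.63 FPKM in the si-circVAMP3 libraries. All 3 control libraries lay within 1 FPKM of each other, both si-circVAMP3 libraries lay far below them, and the groups did not overlap. The mean was 16.5 ± 0.465 FPKM (SD, n = 3) with si-SCR and 6.81 ± 0.258 FPKM (SD, n = 2) with si-circVAMP3. On the log2(FPKM + 0.1) scale the difference was -1.27, or 2.41-fold lower. TAF2 stood at place 35 from the lowest of the log2 differences of the 12245 genes tested. Over all 15 alternatives, which included leaving out each library, its log2 difference stayed between -1.31 and -1.17.

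**Figure D1:**
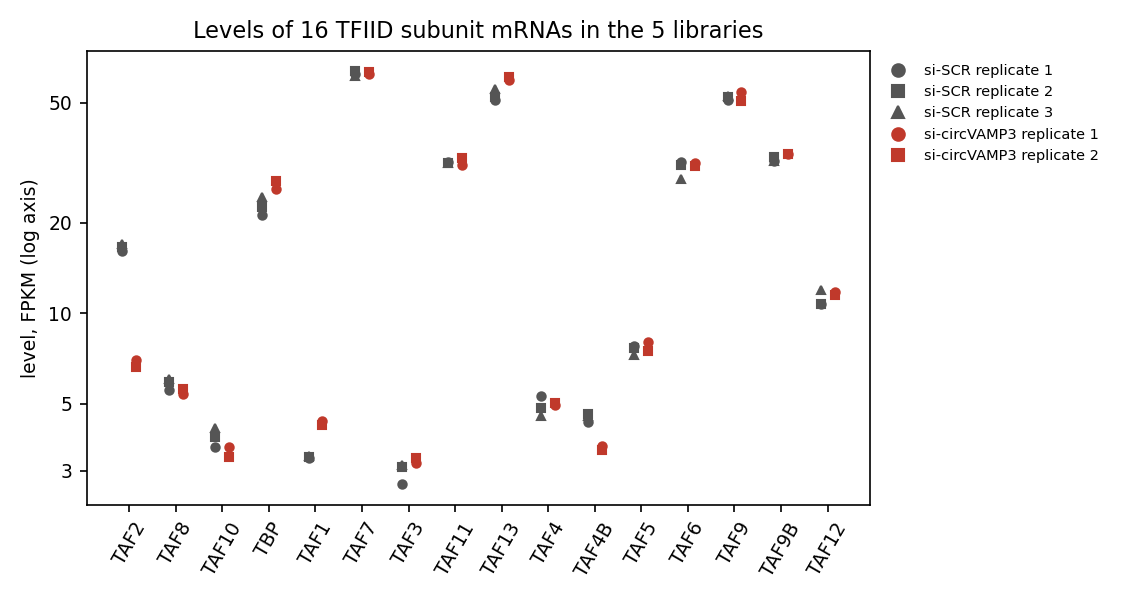
Level of each of the 16 TFIID subunit mRNAs in FPKM on a log axis, with 1 point per library (grey, 3 si-SCR; red, 2 si-circVAMP3). TAF2 lies at 16.1 to 17.0 FPKM with si-SCR and at 6.63 and 6.99 FPKM with si-circVAMP3, while TBP, TAF1 and TAF13 lie a little higher and TAF4B a little lower with si-circVAMP3.

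TAF8, the histone-fold subunit through which TAF2 is held in the complex, stayed near its control level. It was at 5.56, 5.92 and 6.06 FPKM with si-SCR and 5.39 and 5.61 FPKM with si-circVAMP3. The groups overlapped, and the log2 difference of -0.088 (95% interval -0.24 to 0.068) did not pass in limma (adjusted p = 0.35). The ratio of the TAF2 level to the TAF8 level, both in FPKM, was 2.89, 2.80 and 2.80 in the si-SCR libraries. In the si-circVAMP3 libraries the same ratio was 1.30 and 1.18. This shift in the ratio comes from TAF2 and carries no test of its own.

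TAF10, the histone-fold partner of TAF8 and TAF3, is a TFIID subunit outside the 10 members. Its level was 3.60, 3.89 and 4.16 FPKM with si-SCR and 3.60 and 3.34 FPKM with si-circVAMP3. The si-circVAMP3 values lay at or just below the lowest si-SCR value. The log2 difference was -0.16 (95% interval -0.36 to 0.047) and did not pass in limma (adjusted p = 0.209).

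Apart from TAF2, 3 of the other 9 members were higher with si-circVAMP3 and passed the test, which means an adjusted p under 0.05 in limma over all genes tested, and none of the 9 was lower, either in limma at an unadjusted p under 0.05 or in limma-voom on the recovered fragments. Of all genes tested, 30.2% passed in either direction, 14.4% as higher and 15.8% as lower. With 3 of 9 passing against that background, the share is not a result about TFIID, and the 3 genes are given for their own values. The groups did not overlap for 4 of the 9 members (TBP, TAF1, TAF3 and TAF13), against 58.5% of all genes tested. None of the 9 reached an absolute log2 difference of 0.58, the size threshold the study used. A drop past that size together with the test was found for 4.01% of genes, and TAF2 was the only TFIID subunit in the table with a log2 difference below -0.58. Since the group was put together around the drop of TAF2, its standing out is a description and not a result.

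TAF1, the largest TFIID subunit and a bromodomain protein that binds promoter DNA and acetylated histones (chrX:71366222-71532374), had the highest log2 difference of the members. Its level was 3.30, 3.34 and 3.35 FPKM with si-SCR and 4.38 and 4.26 FPKM with si-circVAMP3. The control values lay within 0.1 FPKM of each other and both si-circVAMP3 values lay above them. The log2 difference was 0.36 (SE 0.0645, 95% interval 0.21 to 0.52, limma adjusted p = 0.00816), 1.29-fold higher. With a lone si-circVAMP3 library the call was lost, at adjusted p = 0.0705 in limma without replicate 1 and 0.058 without replicate 2, and over 15 alternatives adjusted p ran from 0.00151 to 0.0705. TAF1L, a near-identical retrocopy of TAF1, was not analysed here, and fragments that match both copies cannot be assigned with certainty.

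TBP, the subunit that bends TATA-box DNA (chr6:170554302-170572870), was at 21.2, 22.6 and 24.4 FPKM with si-SCR and 25.9 and 27.4 FPKM with si-circVAMP3. The 3 control values were spread over more than 3 FPKM, yet both si-circVAMP3 values lay above the highest of them. The log2 difference was 0.23 (SE 0.0678, 95% interval 0.071 to 0.39, limma adjusted p = 0.0421), 1.18-fold higher. This call was close to the threshold. In limma it was lost without si-SCR replicate 1 (adjusted p = 0.0784) or 2 (0.112) and without si-circVAMP3 replicate 1 (0.116) or 2 (0.22), as well as with quantile normalization (0.0536) and without the trend in moderation (0.0806), and the range over 15 alternatives was 0.0102 to 0.22.

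TAF13, which forms a histone-fold pair with TAF11 near TBP (chr1:109062496-109076012), was at 51.2, 52.2 and 55.4 FPKM with si-SCR and 59.5 and 60.7 FPKM with si-circVAMP3. Both si-circVAMP3 values lay above every control value. The log2 difference was 0.18 (SE 0.0472, 95% interval 0.071 to 0.30, limma adjusted p = 0.0285), 1.14-fold higher. In limma it did not pass without si-SCR replicate 1 (adjusted p = 0.0665) or 2 (0.0915) or without si-circVAMP3 replicate 1 (0.115) or 2 (0.156), or without the trend (0.0732), and the range over 15 alternatives was 0.00863 to 0.156.

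TAF11, the partner of TAF13, showed no comparable difference. Its level was 31.8, 31.6 and 31.5 FPKM with si-SCR and 31.0 and 32.7 FPKM with si-circVAMP3, so that the si-circVAMP3 libraries lay on either side of the controls. The log2 difference was 0.011 (95% interval -0.092 to 0.11, limma adjusted p = 0.872). Whether TAF11 and TAF13 differ from each other in their response was not tested.

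TAF3, a PHD-finger subunit that reads trimethylated lysine 4 of histone H3 at active promoters, was the member with the lowest level. It was at 2.71, 3.09 and 3.12 FPKM with si-SCR and 3.18 and 3.31 FPKM with si-circVAMP3. The groups did not overlap, but si-SCR replicate 1 lay apart from the other controls, and the log2 difference of 0.12 (95% interval -0.088 to 0.33) did not pass in limma (adjusted p = 0.335).

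The core subunits TAF4, TAF5 and TAF6 form the scaffold shared by the lobes, and each had overlapping groups. TAF4, which pairs with TAF12, was at 5.30, 4.86 and 4.57 FPKM with si-SCR and 4.97 and 5.03 FPKM with si-circVAMP3 (log2 difference 0.028, 95% interval -0.16 to 0.22). TAF5, a WD40-repeat subunit, was at 7.78, 7.65 and 7.24 FPKM with si-SCR and 8.03 and 7.48 FPKM with si-circVAMP3 (log2 difference 0.037, 95% interval -0.11 to 0.19). TAF6, which pairs with TAF9, was at 31.8, 31.1 and 27.9 FPKM with si-SCR and 31.4 and 30.8 FPKM with si-circVAMP3 (log2 difference 0.042, 95% interval -0.11 to 0.19). In each of these genes the si-circVAMP3 values fell inside or next to the control range, and the limma adjusted p was 0.816, 0.693 and 0.660. For TAF4 and TAF6 the sign of this small difference turned without si-SCR replicate 3, to -0.022 and -0.017, and for TAF5 it turned without si-circVAMP3 replicate 1, to -0.014. For TAF11 it turned without si-circVAMP3 replicate 2, to -0.028.

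**Figure D2:**
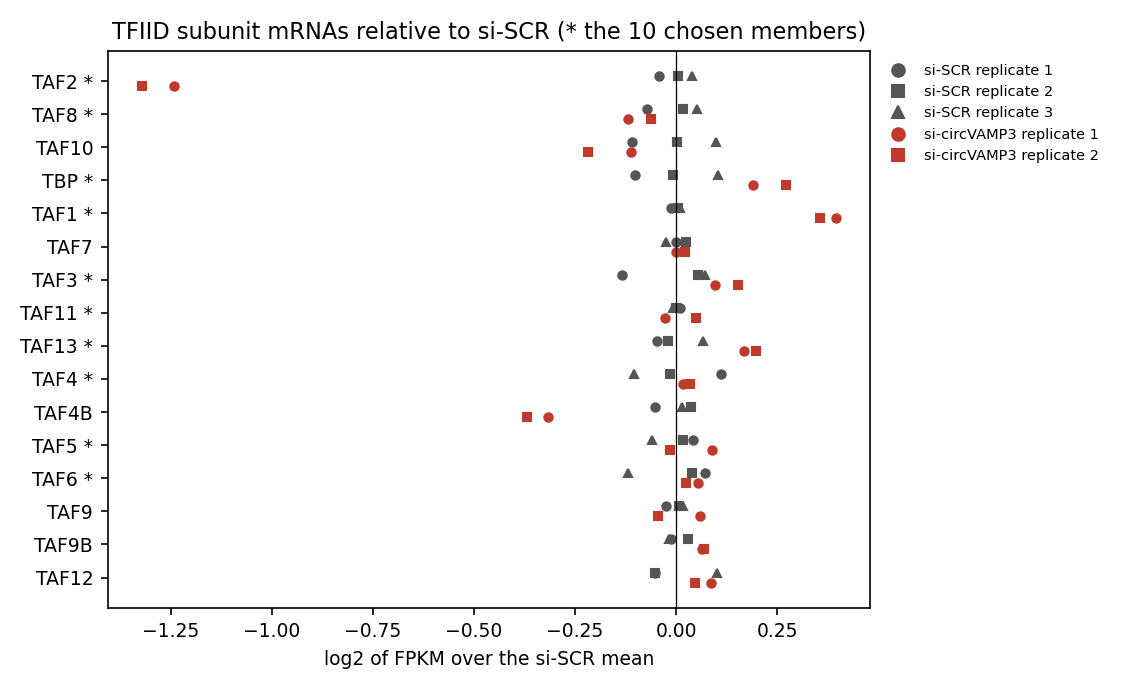
Log2 of the FPKM of each library over the mean of the 3 si-SCR libraries, for 16 TFIID subunits ordered by their place in the complex (stars, the 10 members; 1 point per library). TAF2 lies at -1.24 and -1.32 in the si-circVAMP3 libraries, TAF1 at 0.39 and 0.35 and TAF4B at -0.32 and -0.37, and all points of the other subunits lie between -0.22 and 0.27.

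Another 6 TFIID subunits outside the 10 members were in the table, and 1 of them passed the test, as lower. Of all genes tested, 15.8% were lower and 30.2% passed in either direction, so this count is not a result about the subunits. TAF4B, the paralog of TAF4 known from germ cells and B cells (chr18:26226445-26391685), was at 4.36, 4.64 and 4.57 FPKM with si-SCR and 3.63 and 3.50 FPKM with si-circVAMP3. The groups did not overlap, and the log2 difference was -0.33 (SE 0.0664, limma adjusted p = 0.0122), 1.26-fold lower. It did not pass in limma without si-SCR replicate 2 (adjusted p = 0.053) or without si-circVAMP3 replicate 1 (0.0649) or 2 (0.0889), and its range over 15 alternatives was 0.00791 to 0.0889. At the control level TAF4 and TAF4B could not be ranked, since their si-SCR ranges overlapped. Whether the paralogs differ in their response was not tested.

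The remaining subunits of that list gave small differences that did not pass. TAF7, which binds and restrains TAF1, was at 61.4 to 63.6 FPKM with si-SCR and 62.4 and 63.4 FPKM with si-circVAMP3 (log2 difference 0.010, limma adjusted p = 0.863). TAF9, the partner of TAF6, was at 51.2 to 52.8 FPKM with si-SCR and 54.3 and 50.5 FPKM with si-circVAMP3 (log2 difference 0.0076, limma adjusted p = 0.913). The sign of both turned without some libraries, for TAF7 to -0.0025 without si-SCR replicate 3 and -0.0012 without si-circVAMP3 replicate 2, and for TAF9 to -0.0053 without si-SCR replicate 1 and -0.044 without si-circVAMP3 replicate 1. Under quantile normalization they were -0.0007 and -0.016. TAF9 lies within another gene on its strand, AK6, and fragments of shared exons cannot be told apart. TAF9B, a close paralog of TAF9, was at 31.9 to 33.0 FPKM with si-SCR and 33.8 and 33.9 FPKM with si-circVAMP3 (log2 difference 0.066, limma adjusted p = 0.253). TAF12 was at 10.7 to 11.9 FPKM with si-SCR and 11.8 and 11.5 FPKM with si-circVAMP3 (log2 difference 0.066, limma adjusted p = 0.474). TAF7L was not analysed here.

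Ranked by mean level per length with si-SCR, the order was TAF7, TAF13, TAF9, TAF9B, TAF11, TAF6, TBP, TAF2, TAF12, TAF5, TAF8, TAF4, TAF4B, TAF10, TAF1 and TAF3. The means ran from 62.5 FPKM for TAF7 to 2.97 FPKM for TAF3. The si-SCR ranges of TAF13 and TAF9 overlapped, as did those of TAF11 and TAF6 and of TAF4 and TAF4B, so these neighbours are not separated beyond their spread. TAF2 stood at place 8 of 16 with si-SCR and at place 10 with si-circVAMP3, below TAF12 and TAF5. TAF1 moved from place 15 to place 13. These levels depend on the gene lengths the authors used for FPKM.

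The median log2 difference of the 9 members other than TAF2 was 0.042, against 0.0084 over all 12245 genes tested. That of the 6 other TFIID subunits was 0.0088. Most TFIID mRNAs lay near the middle of all genes, with TAF2 far from the rest.

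The other general transcription factors join TFIID at the promoter, and 17 of their subunits were tested. Of these, 5 were higher, 2 were lower and 10 did not pass, with a median log2 difference of 0.086. Of all genes tested, 14.4% were higher and 15.8% lower, and neither this count nor those of the lists below are read as particular to a list. GTF2A2, the small subunit of TFIIA, the factor that stabilises TBP on DNA, was at 31.0, 30.7 and 33.4 FPKM with si-SCR and 23.0 and 24.4 FPKM with si-circVAMP3. With no overlap of the groups, it was 1.34-fold lower (log2 difference -0.42, SE 0.0547, limma adjusted p = 0.00301), a call that held over all 15 alternatives, with adjusted p from 0.000894 to 0.036. GTF2A1, the other TFIIA subunit, had a log2 difference of -0.27 (limma adjusted p = 0.026, from 0.0125 to 0.162 over 15 alternatives) and did not pass without si-SCR replicate 2 or without si-circVAMP3 replicate 1 or 2, which left 1 gene lower. The 5 that were higher were GTF2F1 of TFIIF, GTF2E2 of TFIIE and GTF2H1, ERCC3 and CDK7 of TFIIH, with log2 differences of 0.18 to 0.28. None of the 5 passed when si-circVAMP3 replicate 1 or 2 was left out, and without si-SCR replicate 1 or 2 the number higher was 3 and 2. Without the trend in moderation it was 3, GTF2E2 and CDK7 being lost, and CDK7 was lost with quantile normalization.

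Of the 12 subunits of RNA polymerase II, 3 were higher, 2 were lower and 7 did not pass, with a median log2 difference of 0.087 (all genes tested, 14.4% higher and 15.8% lower). POLR2F, POLR2H and POLR2B, the second-largest subunit, had log2 differences of 0.25, 0.24 and 0.15. POLR2G (log2 difference -0.23) and POLR2C (-0.22) were lower. The largest of the 12 differences was 1.19-fold, for POLR2F. The number higher was 0 without si-circVAMP3 replicate 1 and 1 without si-circVAMP3 replicate 2 or si-SCR replicate 2, and the number lower was 0 when any 1 of these 3 libraries was left out. Without the trend in moderation POLR2G, POLR2C and POLR2B did not pass, which left 0 lower, and POLR2B did not pass with quantile normalization.

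SAGA, a coactivator that shares TAF9, TAF10 and TAF12 with TFIID, had 15 of 16 further subunits above the filter on low values, ATXN7 being below it. Of these, 2 were higher, 3 were lower and 10 did not pass, with a median log2 difference of 0.058 (all genes tested, 14.4% higher and 15.8% lower). SUPT3H, whose histone folds resemble those of TAF11 and TAF13 joined in 1 protein, was at 4.44, 5.14 and 5.10 FPKM with si-SCR and 3.15 and 3.19 FPKM with si-circVAMP3. Its groups lay apart, and it was 1.52-fold lower (log2 difference -0.61, SE 0.0844, limma adjusted p = 0.00373), with adjusted p from 0.00142 to 0.039 over 15 alternatives. The acetyltransferase KAT2B (log2 difference -0.41) and the ubiquitin protease USP22 (-0.21) were lower too, while TAF6L (0.28), the SAGA paralog of TAF6, and TADA2B (0.22) were higher. KAT2B, USP22, TAF6L and TADA2B did not pass without si-circVAMP3 replicate 1 or 2, which left 1 lower and 0 higher, and TADA2B did not pass when any 1 of the si-SCR libraries was left out or with no filter on low values, which left 1 higher.

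TBP also works outside TFIID, with regulators of its DNA binding and in the factors of RNA polymerases I and III. Of 11 such genes, 4 were higher, 3 were lower and 4 did not pass, with a median log2 difference of 0.22 (all genes tested, 14.4% higher and 15.8% lower). TBPL1, a TBP paralog, was at 8.50, 8.30 and 8.72 FPKM with si-SCR and 6.99 and 6.96 FPKM with si-circVAMP3. Its groups did not overlap and it was 1.22-fold lower (log2 difference -0.28, SE 0.0533, limma adjusted p = 0.0102, from 0.00687 to 0.0741 over 15 alternatives). DR1, a repressor that binds TBP, and TAF1B of the polymerase I factor SL1 were lower by -0.23 and -0.31. BTAF1, which removes TBP from DNA, was higher by 0.26, as were TAF1A (0.35), TAF1D (0.23) and BRF2 (0.32). Without si-circVAMP3 replicate 1 or 2 none of the 3 lower genes passed and 1 and 0 of the higher ones did, and without si-SCR replicate 2 the numbers were 2 higher and 1 lower. Without si-SCR replicate 1 the number lower was 1.

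Mediator links activators to TFIID and the polymerase, and 31 of its 32 listed subunits were tested, MED17 being below the filter. Of these, 7 were higher, 4 were lower and 20 did not pass, with a median log2 difference of 0.061 (all genes tested, 14.4% higher and 15.8% lower). MED19, a subunit of the middle module, was at 11.3, 10.7 and 10.7 FPKM with si-SCR and 6.47 and 6.94 FPKM with si-circVAMP3. It was 1.62-fold lower, with groups that did not overlap (log2 difference -0.69, SE 0.0588, limma adjusted p = 0.00078, from 0.000547 to 0.0131 over 15 alternatives). CCNC, the cyclin of the kinase module, was at 24.5, 23.6 and 25.6 FPKM with si-SCR and 16.4 and 16.4 FPKM with si-circVAMP3. It was 1.49-fold lower (log2 difference -0.58, SE 0.0499, limma adjusted p = 0.000828, from 9.58e-05 to 0.016 over 15 alternatives). MED29 (log2 difference -0.28) and MED13 (-0.21) were lower as well. The higher subunits with the largest differences were MED31 (0.45), MED20 (0.33), MED10 (0.32), CDK19 (0.27), MED1 (0.23) and MED28 (0.18). MED10 passed under all 15 alternatives, whereas without si-circVAMP3 replicate 1 or 2 the number higher was 2 and 1, and without si-SCR replicate 2 it was 4. The number lower was 2 without si-circVAMP3 replicate 2 and 7 with limma-voom on the recovered fragments, and MED13 did not pass when any 1 of the 5 libraries was left out, with no filter on low values, with quantile normalization or without the trend, nor MED28 without the trend.

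**Figure D3:**
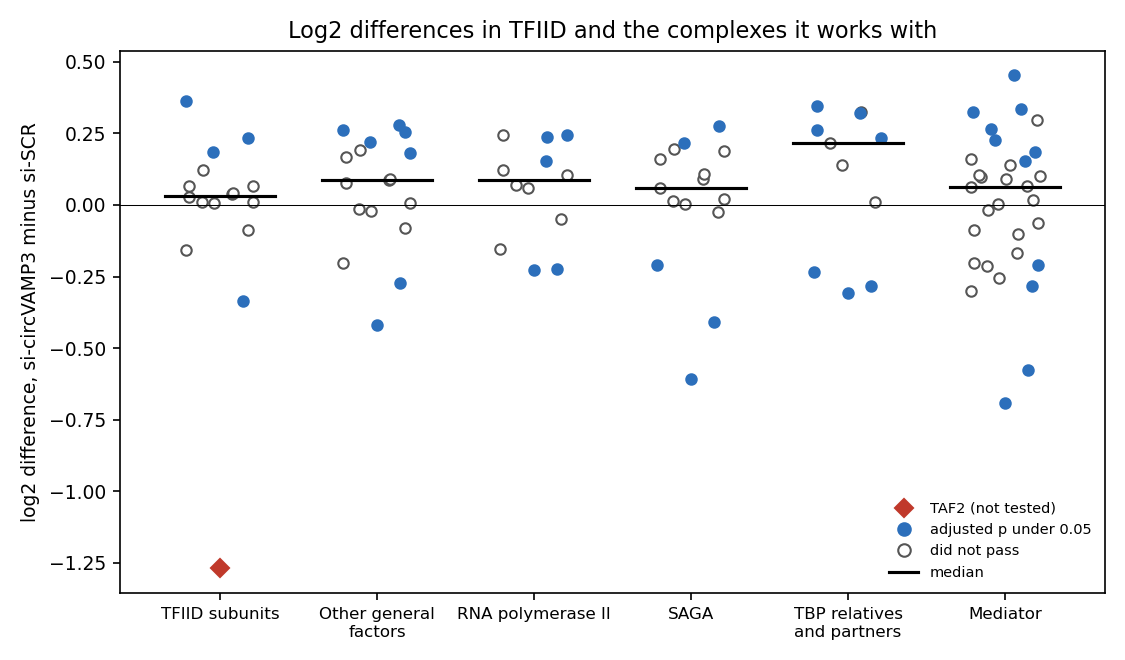
Log2 difference of each tested subunit, si-circVAMP3 minus si-SCR, by complex (red diamond, TAF2, not tested; blue, adjusted p under 0.05 in limma; open, did not pass; horizontal bars, medians). TAF2 at -1.27 lies below every other gene shown, of which MED19 at -0.69 and SUPT3H at -0.61 come next.

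Genes of each of these lists moved in both directions, and the medians of the lists lay between 0.058 and 0.22. Among all 102 subunits and partners tested, TAF2, SUPT3H and MED19 were the ones with an absolute log2 difference above 0.58. Over the 15 alternatives SUPT3H ran from -0.67 to -0.50, and CCNC, at -0.577 in the main fit, from -0.61 to -0.55. Whether SUPT3H and CCNC lay past 0.58 thus depended on the setting, while TAF2 and MED19 stayed past it.

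The mRNAs were then searched for the 7-base match GUGGACA, which pairs with bases 2 to 8 of the complementary siRNA strand printed above, on the sense strand of the MANE Select transcript (the reference transcript of each gene). TAF2 had 3 such matches in an mRNA of 5027 bases. Counted from the first base of the mRNA, 2 lay in the coding sequence at 2927 and 2975, 48 bases apart, and 1 lay in the 3′ UTR at 4666, the coding sequence running from 278 to 3877. TAF8 had 2 matches, 1 in the coding sequence and 1 in the 3′ UTR, and its level did not pass the test. TAF5, TAF6, TAF13 and TAF4B had 1 match each, in the coding sequence, and TBP, TAF1, TAF3, TAF4 and TAF11 had 0. Of the other subunits, TAF7, TAF9, TAF9B, TAF10 and TAF12 had 0.

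Such matches are common. Of 10862 mRNAs, 31.2% held 1 or more, 7.85% held 2 or more and 1.88% held 3 or more. Among the 2370 mRNAs of 4000 to 6000 bases, the class of TAF2, 35.9% held 1 or more and 1.81% held 3 or more. TAF2 itself is among those with 3 or more. It was chosen for its drop, and matches were frequent among strongly lowered mRNAs. Its count of 3 therefore cannot be read as a result about TAF2. The median log2 difference was 0.048 for genes with 0 matches, -0.054 with 1, -0.13 with 2 and -0.20 with 3 or more. Genes called lower made up 11.1% of those with 0 matches, 24.4% with 1, 36.1% with 2 and 35.3% with 3 or more. Within the class of 4000 to 6000 bases the median was 0.026 for the 1520 genes with 0 matches and -0.27 for the 43 with 3 or more.

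**Figure D4:**
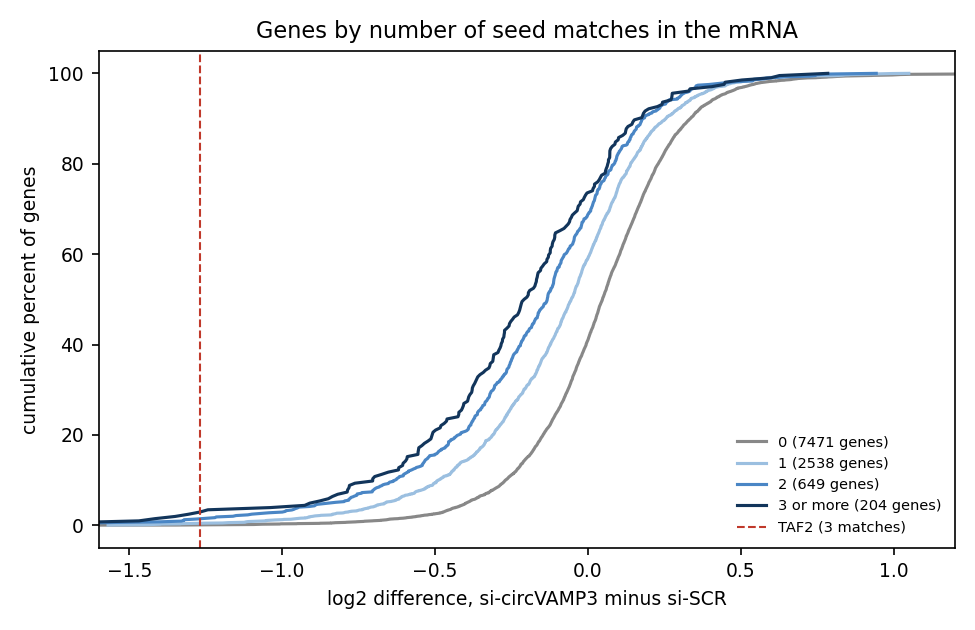
Cumulative percent of genes against the log2 difference, si-circVAMP3 minus si-SCR, for mRNAs with 0, 1, 2 and 3 or more matches (dashed line, TAF2 at -1.27). The curves lie further to the left with more matches, with medians from 0.048 to -0.20.

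These medians describe genes of the same 5 libraries, which are not independent of each other, and a match is a run of letters, not a shown binding site. For the listed strand the corresponding match is CGAUGAU, held 1 or more times by 6.83% of mRNAs, with a median log2 difference of -0.013 against 0.017 for the rest. Of the 16 TFIID subunits, TAF1, TAF4 and TAF9 held 1 of these each, in the coding sequence, and the others, TAF2 among them, held 0. Of the 14 genes called lower in the lists of the other complexes, 5 (SUPT3H, USP22, POLR2C, POLR2G and MED13) had 1 match to the complementary strand each and 9 had 0. Of the 21 called higher, 2 (CDK7 and TADA2B) had 1 match each and 19 had 0. Of all mRNAs searched, 31.2% held 1 or more matches to the complementary strand. Genes called lower made up 27.3% of those with 1 or more and 11.1% of those with 0. The counts of the lists are therefore not read as particular to them. The linear VAMP3 mRNA had 2 matches to the complementary strand. Pairing of either siRNA strand with any of these mRNAs was not tested.

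The 5 genes whose log2 profile over the 5 libraries was most like that of TAF2 were SLITRK5, AKT1, CTBP2, COQ2 and NKAIN4. Likeness was the root mean square difference between log2 profiles centred on their own means, and it was 0.031, 0.035, 0.037, 0.039 and 0.046 log2 units. The likeness reflects a difference of similar size between the same 5 libraries. SLITRK5, a neuronal membrane protein, was at 1.33, 1.43 and 1.42 FPKM with si-SCR and 0.532 and 0.477 FPKM with si-circVAMP3. AKT1, a survival kinase, was at 49.5, 51.3 and 50.2 FPKM with si-SCR and 21.8 and 21.3 FPKM with si-circVAMP3. CTBP2, a transcriptional corepressor, was at 10.1, 10.1 and 10.2 FPKM with si-SCR and 4.16 and 3.81 FPKM with si-circVAMP3. All of these profiles are flat within each group and low in both si-circVAMP3 libraries. COQ2, an enzyme of coenzyme Q synthesis, was at 10.6, 10.7 and 11.6 FPKM with si-SCR and 4.73 and 4.61 FPKM with si-circVAMP3. NKAIN4, a membrane protein that interacts with the sodium pump, was at 17.0, 17.2 and 17.6 FPKM with si-SCR and 7.91 and 6.996 FPKM with si-circVAMP3. By the same search, AKT1, CTBP2 and COQ2 held 2 seed matches to the complementary strand each, SLITRK5 held 1 and NKAIN4 held 0. These genes were chosen for a drop like that of TAF2, and matches were frequent among strongly lowered mRNAs. Of the mRNAs searched with a log2 difference below -0.58, 284 held 1 or more matches and 131 held 0. The count among the 5 genes therefore cannot be read as a result about them.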

How the data were processed

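RNA of RH4 cells (3 si-SCR and 2 si-circVAMP3 libraries, biological replicates by the study's methods) was prepared with a strand-specific poly-A kit. The authors trimmed reads (Trimmomatic), aligned them to GRCh38 with Ensembl release 99 (STAR 2.5.2b), counted them by strand (HTSeq) and deposited FPKM values computed with edgeR for genes that passed a filter on counts. Of 13822 identifiers, 13783 matched a symbol. Whole fragments were recovered from the FPKM values within 0.001 fragments for 100% of values. For a gene whose counts share a factor they are a minimum.

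log2(FPKM + 0.1) of the 12245 genes with a mean of at least 0.5 FPKM was fitted with limma 3.58.1 (R 4.3.3, lmFit, eBayes with trend) without a block. Tests were two-sided, with Benjamini-Hochberg adjustment over all genes tested. The script was tested on simulated data. Alternatives changed the pseudocount, filter, scaling, moderation, block, threshold and libraries. limma-voom on recovered fragments and the counts of each list under the alternatives were chosen after seeing the data. The search for seed matches, its length class and its grouping by number of matches were not among the planned results either.

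The members and lists were chosen with earlier results of these data known. By rule, the named genes are every member, every other TFIID subunit, up to 6 genes a direction that passed from each further list, VAMP3 and the 5 genes most like TAF2. Cell type markers form a separate list, and 3 further genes (MED24, TAF1C and MED14) were singled out after their values were seen. The other tested genes of the further lists with a match and no call are named beside them. POLR2A, which was tested and did not pass, was not among the mRNAs searched for matches. Transcripts and positions are from GENCODE release 44 (GRCh38).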

Additional observations from a re-analysis of the deposited data

How the results depend on the processing

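With 12245 genes tested, 3701 passed. With an absolute log2 difference above 0.58 required as well, 683 passed. Leaving out 1 library gave 1283 to 3994, the lowest counts coming when 1 si-circVAMP3 library remained, which was assumed to vary like the si-SCR libraries. Of the 9 members other than TAF2, 3 passed. The number was 1 without the trend, 0 with the size threshold and 0 to 3 with a library left out. With the replicate number as a block, 3154 genes and 3 of the 9 members passed. Neither the sample titles nor the study's methods say whether same-numbered libraries belong together. The correlation of same-numbered deviations was -0.13 for number 1 and -0.034 for number 2, and si-SCR replicate 3 has no same-numbered partner. With 2 si-circVAMP3 libraries their deviations are mirror images of each other, so these correlations cannot decide it.

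TAF2 kept its direction under each alternative, its log2 difference moving most with a pseudocount of 1 FPKM, to -1.17. The genes whose sign turned had small differences that passed under no alternative. With the block, TAF4 was at -0.022, TAF6 at -0.017 and TAF7 at -0.0025. With quantile normalization, TAF7 was at -0.0007 and TAF9 at -0.016. With a library left out, TAF4 ran from -0.022 to 0.083, TAF5 from -0.014 to 0.087, TAF6 from -0.017 to 0.079, TAF11 from -0.028 to 0.049, TAF7 from -0.0025 to 0.022 and TAF9 from -0.044 to 0.059. The cause was not tested. The calls of TBP, TAF13, GTF2E2, CDK7, POLR2B, POLR2G, POLR2C, MED28 and MED13 were lost without the trend, those of TBP, CDK7, POLR2B and MED13 with quantile normalization, which left 2 of the 9 members, and those of TADA2B and MED13 with no filter. With the block, GTF2A1, TADA2B, TAF1A, MED28 and MED13 did not pass. Of 765 values of TFIID subunits, VAMP3 and the genes named from the further lists under the alternatives, 114 kept their direction and no longer passed. The 765 include values of TAF2, which was not tested, and of subunits that did not pass in the main fit. These had no call to lose, so the share among genes with a call is larger. With 3 and 2 libraries, the 95% intervals of members that did not pass stay wide. The absolute value of their larger end ran from 0.11 (TAF11) to 0.33 (TAF3) on the log2 scale.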

Other observations

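Some tested genes of the further lists held seed matches to the complementary strand without a lower call. GTF2B, GTF2F2, TRRAP, BRF1, MED18 and MED26 held 1 match each and did not pass. CDK7 and TADA2B, named above, held 1 each and were called higher, while 5 genes with matches were called lower. MED24, TAF1C and MED14, described next, held more than 1 match and were singled out after their values were seen. MED24, a Mediator tail subunit, held 3 matches, all in its coding sequence, and was at 9.59, 10.1 and 9.63 FPKM with si-SCR and 8.81 and 8.55 FPKM with si-circVAMP3 (log2 difference -0.17, limma adjusted p = 0.054). TAF1C of the polymerase I factor SL1 held 2 matches in its coding sequence and was at 6.76, 6.05 and 5.26 FPKM with si-SCR and 6.84 and 8.30 FPKM with si-circVAMP3 (log2 difference 0.33, limma adjusted p = 0.0928). MED14, the backbone of Mediator, held 2 matches, with a log2 difference of -0.019 (limma adjusted p = 0.85). Over the 10862 mRNAs searched, those with 1 or more matches in the 3′ UTR had a median log2 difference of -0.12, against -0.073 for those with 1 or more in the coding sequence. These sets share genes, TAF2 among them, and neither mRNA length nor the number of matches was held equal. Whether the place of a match matters was not tested.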
